A study of Mus musculus with 4 samples.

Results

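The genes described are 9 transcription factor genes of group 3 innate lymphoid cell (ILC3) identity: Rora, Tox, Tox2, Id2, Nfil3, Zbtb16, Gata3, Tcf7 and Maf. They were taken by symbol from both tables of expression values, one of 15242 gene rows for IL-17D knockout (KO) and WT cells and one of 12546 rows for CD93-positive and CD93-negative cells, and all 9 had a row in each. RNA came from ILC3s of the mouse small intestine under steady state, sorted as live, CD45 low, CD3 negative and CD90.2 high. There were 4 libraries, 1 per group, so no difference below has a replicate check, and intervals cover the counting of reads only. The WT library came from wild type mice and the KO library from mice labelled Il17d-KO, which lack the cytokine IL-17D. The CD93+ and CD93- libraries came from WT mice and were split by the surface glycoprotein CD93. For that sort the cells had first spent 12 h in unstimulated culture, and the labels attach this protocol to every library, so the WT and KO cells may or may not have been cultured. The sources used here do not give the age, sex or strain of the mice, the kind of Il17d allele or how many mice were behind a library.

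ILC3s are lymphocytes of the gut and its lymphoid follicles that lack antigen receptors, answer to IL-23 and IL-1 and secrete IL-22 and IL-17. Innate lymphoid cells (ILCs) arise from the common lymphoid progenitor through precursors in which NFIL3, TCF-1 (the product of Tcf7), TOX, ID2, GATA3 and PLZF (the product of Zbtb16) act in turn. Nuclear receptors of the ROR family and AHR then set the ILC3 program, T-bet opposes it in cells that turn toward an ILC1 state, and high GATA3 marks ILC2s.

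Values are FPKM, fragments per kilobase of gene scaled to the reads of the library, which allow levels of different genes to be compared within a library. The scaling totals behind the FPKM were 27002581 reads in KO and 26087274 in WT, and 11712846 in the library with CD93 and 11790580 in the one without. The tables did not use the same gene annotation, so levels are compared within a table. Il17d was not analysed here, and the KO label was therefore not checked against it. Cd93 itself reached 155 FPKM in the CD93-positive library against 79.9 in the CD93-negative one, a ratio of 1.94 (95% exact interval 1.88 to 2.00). All 16 ILC3 markers listed reached an FPKM of 1 in each pair, led by Il22 with 11771 FPKM in KO, 16102 in WT, 7934 in the CD93-positive and 1655 in the CD93-negative library. Transcripts typical of other cells were present as well: T cell receptor constant genes were high in the first pair, with Trbc1 at 532 in KO and 416 in WT, and 13 pancreatic exocrine genes summed to 1517 in KO and 4.60 in WT.

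Id2 and Rora were the most abundant of the 9 genes in 3 of the 4 libraries, and in the CD93-negative library Id2 was followed by Tcf7. ID2 binds E proteins and keeps them off DNA, and ILCs need it. Id2 (chr12:25093799-25097140, minus strand; mm10, as for all genes here) stood at 332 FPKM in KO and 387 in WT, and at 465 in CD93-positive and 287 in CD93-negative cells. RORα is a nuclear receptor that binds ROR response elements, and Rora (chr9:68653786-69388246, plus strand) stood at 149, 130, 119 and 97.5 in the same order of libraries. TCF-1 is an HMG-box factor of the WNT pathway, and Tcf7 (chr11:52252371-52283014, minus strand) stood at 113, 118, 112 and 120. Zbtb16 (chr9:48654297-48836222, minus strand), whose product PLZF marks ILC precursors and innate-like T cells, was low throughout, with 3.59 in KO, 1.93 in WT, 4.61 in CD93-positive and 9.76 in CD93-negative cells. The 9 genes together summed to 864 FPKM in KO, 861 in WT, 832 in CD93-positive and 607 in CD93-negative cells, and most of each sum was Id2, Rora and Tcf7.

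**Figure D1:**
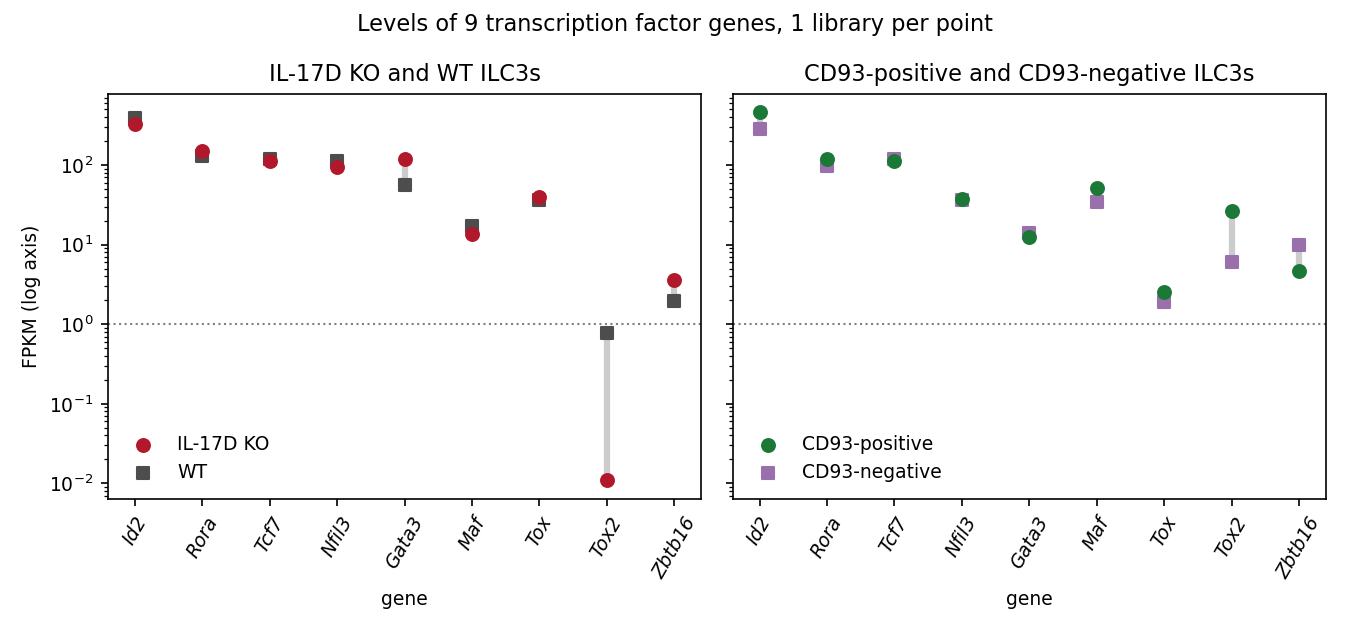
FPKM of each of the 9 genes on a log axis, KO and WT on the left and CD93-positive and CD93-negative ILC3s on the right, 1 library per point; the dotted line is an FPKM of 1. Gata3 is the gene above that line with the widest gap in the left panel, 118 against 55.6, and Tox2 has the widest gap in the right panel, 26.7 against 5.99.

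From the highest to the lowest FPKM the order in the WT library was Id2, Rora, Tcf7, Nfil3, Gata3, Tox, Maf, Zbtb16 and Tox2. The counting intervals of Tcf7 (118) and Nfil3 (113) overlapped there, and those of the other neighbours did not. In the KO library Gata3 stood in the third place instead of the fifth, above Tcf7 and Nfil3, and the rest of the order was that of WT. The CD93-positive library ran from Id2 through Rora, Tcf7, Maf, Nfil3, Tox2, Gata3 and Zbtb16 to Tox. In the CD93-negative library the counting intervals of Nfil3 (36.5) and Maf (34.1) overlapped, and Tox2 was eighth, between Zbtb16 and Tox. No interval could be made for Tcf7 in that pair, because its FPKM did not resolve into whole reads.

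The first comparison asks whether ILC3s that develop without IL-17D carry another set of identity factors. A gene was measured where its FPKM reached 1 in either library of the pair, and differences are log2 of FPKM + 1, called past 2-fold at a difference of at least 1 in size. Of the 9 genes 8 were measured and 1, Gata3, was past 2-fold, against 29.3% of all 12376 measured genes (16.6% higher and 12.7% lower in KO). The count of 1 among 8 does not stand above that background. On the FPKM ratio with no pseudocount or filter 2 members, Gata3 and Tox2, were past 2-fold, against 34.5% of all genes above 0 in both libraries under the same rule. The other measured differences lay between -0.32 and 0.65 on the log2 scale, and the median of all measured genes was 0.01. In bulk RNA, fewer cells of a type and less RNA per cell cannot be told apart.

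GATA3 is a zinc finger factor needed for all helper-like ILCs; it is kept at a moderate level in ILC3s and is high in ILC2s and in type 2 helper T cells. Gata3 (ENSMUSG00000015619.10; GENCODE M21 on mm10, minus strand, chr2:9857078-9890034) stood at 118 FPKM in KO, from 12676 reads, and at 55.6 in WT, from 5773 reads. The KO library was 2.12-fold higher (2.06 to 2.19), a log2 difference of 1.07. With both libraries scaled to a common sum the difference was 1.24, and at a median ratio of 1 it was 1.09. Gata3 was 3274th of 12376 measured genes by the size of its difference. Among the 4857 genes that reached an FPKM of 10 in either library, 17.1% were past 2-fold. In the CD93 pair Gata3 stood at 12.5 FPKM in CD93-positive and 14.1 in CD93-negative cells, and the CD93-negative library was 1.13-fold higher (1.01 to 1.26). Its exons overlap those of 9230102O04Rik on the same strand and of Gm13256 on the other strand, neither of which was in the tables, and the sources used here do not say whether counting used the strand; exons of Rora, Tox and Maf each overlap an antisense gene, also not in the tables.

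The 250 bases before the RefSeq start of Gata3 (GRCm38.p6, minus strand, chr2:9878601-9878850) are shown because Gata3 was the member past 2-fold between KO and WT. The window, none of it in an exon of Gata3, was searched on both strands for the core letters of factors in the set: AGATAA for GATA factors, AGGTCA for ROR factors, ATCAAAG for TCF-1 and LEF-1, TGCTGA for MAF, CANNTG for the E proteins that ID2 binds, and TTACGTAA for NFIL3. Capitals mark the MAF letters, which begin 90 bases before the start and were the only match.
Gata3: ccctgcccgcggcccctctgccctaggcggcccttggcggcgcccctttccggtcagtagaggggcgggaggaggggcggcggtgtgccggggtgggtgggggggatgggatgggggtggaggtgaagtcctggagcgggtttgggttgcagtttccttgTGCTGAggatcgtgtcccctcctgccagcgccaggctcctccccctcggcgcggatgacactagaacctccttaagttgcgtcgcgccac
Over 32851 RefSeq promoter windows of this length, 16.1% held the MAF letters, 9.99% those of GATA, 14.0% those of ROR, 3.21% those of TCF, 66.2% an E-box and 0.113% those of NFIL3. A match is a description of letters and no evidence of binding.

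Genes and markers of other cells that express GATA3 are given beside it. Of 13 measured ILC2 genes linked to GATA3, 4 were past 2-fold higher and 1 lower. Of all measured genes 16.6% were past 2-fold higher and 12.7% lower, and these shares also stand beside the marker counts below. The 13 genes had a median log2 difference of -0.06 (0.01 for all genes), whose sign turned at a common sum (0.06). Il4, the type 2 cytokine gene, stood at 27.2 FPKM in KO and 5.0 in WT, a ratio of 5.44 (4.59 to 6.48). Il17rb, the IL-25 receptor subunit, stood at 11.5 and 2.15, and Ccr8, a chemokine receptor, at 32.5 and 8.16. Areg, the growth factor amphiregulin, went the other way with 11.9 in KO and 33.7 in WT. Of 17 measured T cell markers 10 were past 2-fold higher and 0 lower, and 0 of the 17 were at 0 in either library. The count past 2-fold changed with the settings for low values. With a filter at an FPKM of 5, which leaves fewer markers measured, it was 6, and the median log2 difference stayed at 1.03. At a pseudocount of 5 the count was 2, and the median log2 difference was 0.49 instead of 1.03. The T cell markers summed to 1405 FPKM in KO and 970.3 in WT, led by Trbc1, Trbc2 (469 and 335) and Trac (177 and 86.7). Of 8 measured ILC2 markers, which share genes with the list linked to GATA3, 4 were past 2-fold higher in KO and 1 lower, with a median log2 difference of 0.96. The 10 tabulated ILC2 markers summed to 245 and 203, with 1 at 0 in WT, and Arg1, the highest, stood at 130 and 126. The part of T cells, ILC2s and other cells in the Gata3 difference was not tested.

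The other 7 measured genes differed by less than 2-fold between KO and WT. Zbtb16 stood at 3.59 FPKM in KO (512 reads) and 1.93 in WT (266 reads), a ratio of 1.86 (1.60 to 2.16), and its log2 difference of 0.65 was below the limit. Rora was 1.15-fold higher in KO (1.14 to 1.17), and Tox 1.08-fold higher (1.05 to 1.12), at 39.8 and 36.6. Id2 was 1.17-fold lower in KO (1.14 to 1.19). Nfil3 (chr13:52967209-52981073, minus strand), the gene of a basic leucine zipper factor needed at the start of ILC development, stood at 94.8 and 113, with KO 1.20-fold lower (1.15 to 1.24). Maf (chr8:115682942-115707794, minus strand) encodes c-MAF, a factor that restrains the type 1 program in ILC3s, and stood at 13.6 and 17.3, 1.27-fold lower in KO (1.21 to 1.33). Tcf7 was 1.05-fold lower in KO (1.02 to 1.08), and its sign turned at a common sum, where the log2 difference was 0.10. A common sum also changed the log2 difference of Id2 from -0.22 to -0.05, of Nfil3 from -0.26 to -0.08 and of Maf from -0.32 to -0.16. That of Rora went from 0.20 to 0.37 and that of Tox from 0.11 to 0.28. The counting intervals above hold for the deposited scaling. They exclude a ratio of 1 by counting alone and say nothing of how far libraries of one group vary.

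**Figure D2:**
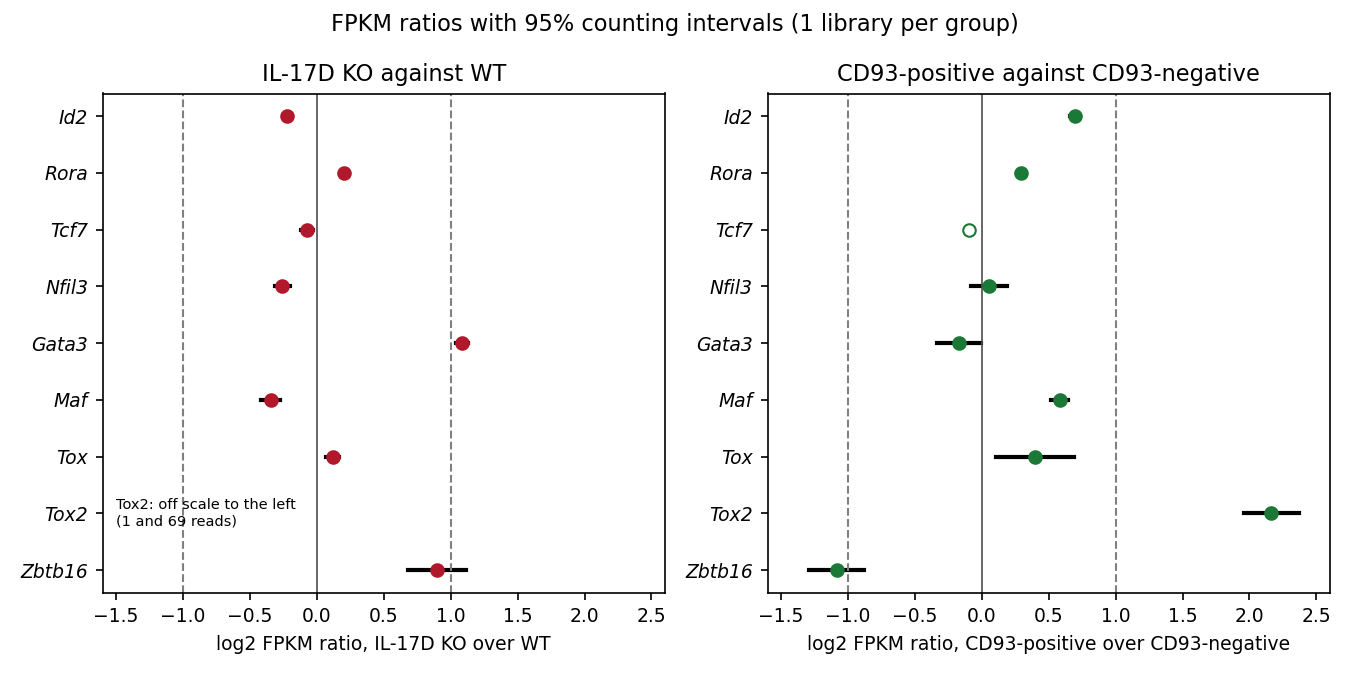
FPKM ratio of each gene on a log2 axis with its 95% counting interval, KO over WT on the left and CD93-positive over CD93-negative on the right; dashed lines mark 2-fold and the open circle marks Tcf7, which has no interval. Gata3 lies past the dashed line at 2.12-fold on the left, with Tox2 off the scale at 1 and 69 reads, and Tox2 lies at 4.47-fold and Zbtb16 at 2.12-fold lower on the right.

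The second comparison asks which factors set CD93-positive ILC3s apart from CD93-negative ones. All 9 genes were measured and 1, Tox2, was past 2-fold, against 4.43% of 10117 measured genes (2.49% higher and 1.94% lower in CD93-positive cells). On the FPKM ratio with no pseudocount or filter 2 members were past 2-fold, Tox2 and Zbtb16, against 13.5% of all genes above 0 in both. Of all genes past 2-fold as deposited, 252 were higher and 196 lower in CD93-positive cells (56.2% higher), and at a common sum 173 were higher and 296 lower (36.9% higher). With a common sum the median over all genes shifted by -0.16 in this pair and by 0.16 between KO and WT.

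TOX2 is an HMG-box factor related to TOX, known in NK cells and follicular helper T cells. Tox2 (ENSMUSG00000074607.11, plus strand, chr2:163203125-163324170) stood at 26.7 FPKM in CD93-positive cells, from 1065 reads, and at 5.99 in CD93-negative cells, from 240 reads. The CD93-positive library was 4.47-fold higher (3.88 to 5.16), a log2 difference of 1.99, which ranked 34th from the top and 51st by size among 10117 genes. It was 1.83 at a common sum and 1.94 at a median ratio of 1. Tox2 had 1 read in KO (FPKM 0.0109) and 69 reads in WT (0.778), below an FPKM of 1 in both libraries, and so was not measured in that pair. The ratio there was 71.4-fold lower in KO, with a counting interval from 12.4 to 2861.

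The bases before the start of Tox2 are shown because it was the member with the largest difference between the CD93 libraries. RefSeq gives 5 starts for the gene within the window table. The first window lies on the plus strand at chr2:163202877-163203126 (GRCm38.p6), with 2 of its bases in an exon of Tox2, and its capitals mark an E-box that begins 229 bases before the start. The stretch of 25 bases on the second line, chr2:163225304-163225328, comes from the window of a downstream start, and its capitals are the TCF letters, beginning 140 bases before that start.
Tox2: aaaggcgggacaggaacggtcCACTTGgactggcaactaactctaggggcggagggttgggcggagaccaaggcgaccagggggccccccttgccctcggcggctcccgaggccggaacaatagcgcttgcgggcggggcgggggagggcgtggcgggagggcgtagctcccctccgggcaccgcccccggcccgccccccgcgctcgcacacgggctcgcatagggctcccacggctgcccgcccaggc
Tox2 downstream start: tggatttggATCAAAGaggttaaat
The E-box is common, in 66.2% of windows, and the TCF letters are in 3.21%. These shares are per window, while the windows of all 5 Tox2 starts were searched, and some of them overlap. Exons of Tox2 cover 90 bases of the downstream window with the TCF letters. Windows were matched for 6 of the 9 genes, namely Rora, Tox2, Id2, Nfil3, Gata3 and Tcf7. The ROR letters read on the other strand, TGACCT, began 12 bases before the start of Nfil3 and 13 before the second start of Tcf7. Exons of the same gene cover 34 bases of that Nfil3 window and 67 of that Tcf7 window. The window of Rora held none of the motifs.

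Tox and Tox2 took opposite ranks in the tables. TOX, whose gene lies at chr4:6686353-6991557 on the minus strand, is needed for the common ILC precursor and for NK cells and CD4 T cells. Within the KO library Tox (39.8) was 3651-fold above Tox2, a ratio that rests on 1 read of Tox2, and within WT (36.6) it was 47.1-fold above. Within the CD93-positive library Tox2 was 10.6-fold above Tox (2.52), and within CD93-negative it was 3.12-fold above Tox (1.92). The tables list different genes, so percentiles among all rows are read within a table. In the first table Tox stood at the percentiles 89.3 in KO and 88.6 in WT, and Tox2 at 9.38 and 26.6. In the other table Tox stood at 33.7 in CD93-positive and 29.3 in CD93-negative cells, and Tox2 at 84.2 and 50.6. The ratio of Tox between the CD93 libraries was 1.32 (1.07 to 1.62), from 225 and 172 reads. The pairs differ in annotation and in the sort, and may differ in culture, and which of these goes with the exchange of ranks cannot be told apart. Of the other TOX genes Tox4 was tabulated, at 5.22 in KO and 8.41 in WT and at 15.3 in CD93-positive and 16.9 in CD93-negative cells.

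**Figure D3:**
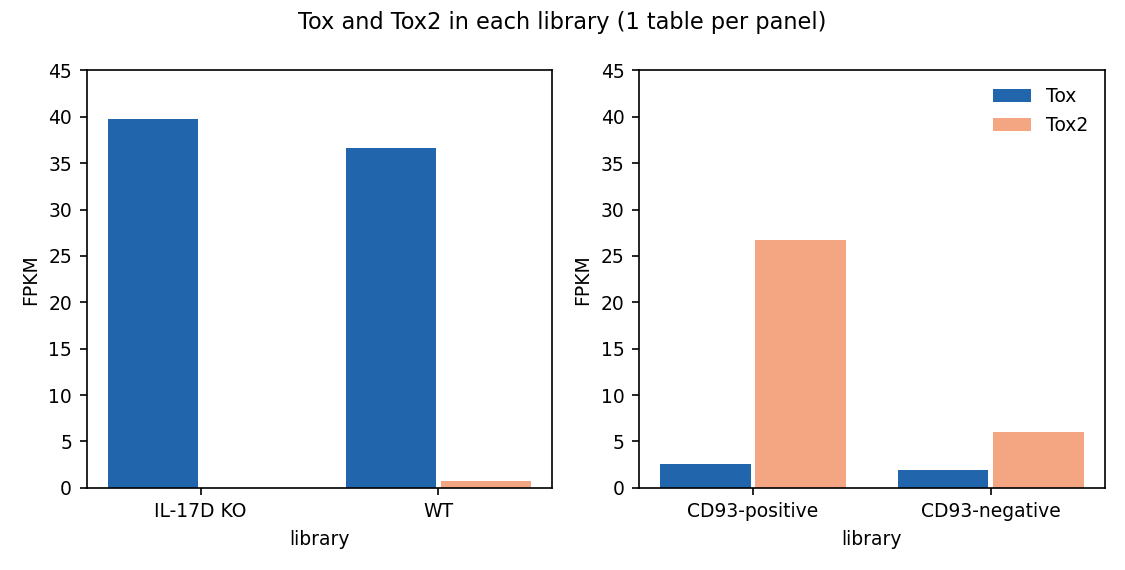
FPKM of Tox and Tox2 in each library, 1 bar per gene and library, with the KO and WT table on the left and the CD93 table on the right. Tox is the higher bar in KO (39.8) and WT (36.6), and Tox2 the higher in CD93-positive (26.7) and CD93-negative cells (5.99).

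The remaining 8 genes differed by less than 2-fold on the log2 scale of FPKM + 1. Zbtb16 was nearest to the limit, with 4.61 FPKM (285 reads) in CD93-positive and 9.76 (608 reads) in CD93-negative cells, a log2 difference of -0.94. Its FPKM ratio was 2.12-fold lower in CD93-positive cells (1.84 to 2.45), and at a common sum the difference was -1.09, past the limit. Id2 stood at 465 and 287, 1.62-fold higher in CD93-positive cells (1.58 to 1.67), with a log2 difference of 0.69 that was 0.52 at a common sum. Maf stood at 51.0 and 34.1, 1.497-fold higher (1.43 to 1.56), and its difference of 0.57 was 0.40 at a common sum. Rora was 1.22-fold higher (1.20 to 1.25). Nfil3, at 37.8 and 36.5, had a ratio of 1.04 whose interval (0.944 to 1.14) includes 1, and its sign turned at a common sum (-0.12). Tcf7, at 112 and 120, was 1.07-fold lower in CD93-positive cells. Tox2, Id2, Maf and Rora were thus the members higher in CD93-positive cells under each scaling, together with Tox, and Zbtb16, Gata3 and Tcf7 were the ones lower.

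Partners, paralogs and other lymphoid transcription factors give the surroundings of the 9 genes. Of 89 such genes, 61 were measured between KO and WT, with 7 past 2-fold higher, 4 lower and a median of -0.04, whose sign turned at a common sum (0.13). These 11 genes are 18.0% of those measured, beside 29.3% of all genes. Between CD93-positive and CD93-negative cells 77 were measured, with 4 higher, 8 lower and a median of -0.13 (-0.29 at a common sum), against 0.04 for all genes. These 12 genes are 15.6% of those measured, beside 4.43% of all genes. Tbx21, which encodes T-bet, stood at 4.52 FPKM in KO and 7.80 in WT, and at 7.96 with CD93 and 25.4 without it, 3.19-fold lower in the former (2.75 to 3.72). Within libraries the level of Gata3 was 26.1 times that of Tbx21 in KO, 7.14 times in WT, 1.57 times in CD93-positive and 0.553 times in CD93-negative cells.

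Of the other named factors, 4 were past 2-fold at an FPKM of at least 5 between KO and WT. Zbtb17, a BTB zinc finger gene like Zbtb16 whose product MIZ-1 partners MYC, stood at 8.21 in KO and 0.801 in WT. Runx2, a RUNX factor gene, stood at 5.09 and 1.99. Ctnnb1, the gene of β-catenin, which TCF-1 binds, stood at 4.44 and 19.3, 4.36-fold lower in KO (3.99 to 4.76). Bach1, a repressor that pairs with small MAF proteins, stood at 0.414 and 5.55, 13.4-fold lower (10.5 to 17.4). Of the small MAF genes, Mafg stood at 1.66 and 3.59 and Mafk at 5.73 and 8.80, neither past 2-fold on the log2 scale of FPKM + 1. Id1 had 0 reads in KO and 51 in WT (FPKM 1.69), at least 17.6-fold lower against 3 reads, while Id3 stood at 1.84 and 1.80.

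Between the CD93 libraries several factors besides Tbx21 were past 2-fold at that level. Batf3, an AP-1 factor of dendritic cells and T cells, stood at 6.84 and 1.22, and Zbtb32, a BTB zinc finger gene, at 5.51 and 1.62, both higher in CD93-positive cells. Zeb2, a zinc finger gene of mature NK cells, stood at 8.38 and 2.99. The PAR bZIP genes Dbp (2.45 and 8.44) and Tef (5.33 and 15.6), whose products bind the same D-box sites as NFIL3, were both lower in CD93-positive cells. Bach2, a repressor of effector programs, was lower as well, at 3.31 and 8.09. Among near paralogs, Id3 stood at 0.715 and 2.89, from 15 and 61 reads, and Lef1, the paralog of Tcf7, at 0.709 and 2.86. Within libraries Id2 was 651-fold above Id3 in CD93-positive and 99.4-fold above in CD93-negative cells. Mafg (43.9 and 31.1) and Mafk (42.4 and 40.5) were under 2-fold on the log2 scale of FPKM + 1.

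**Figure D4:**
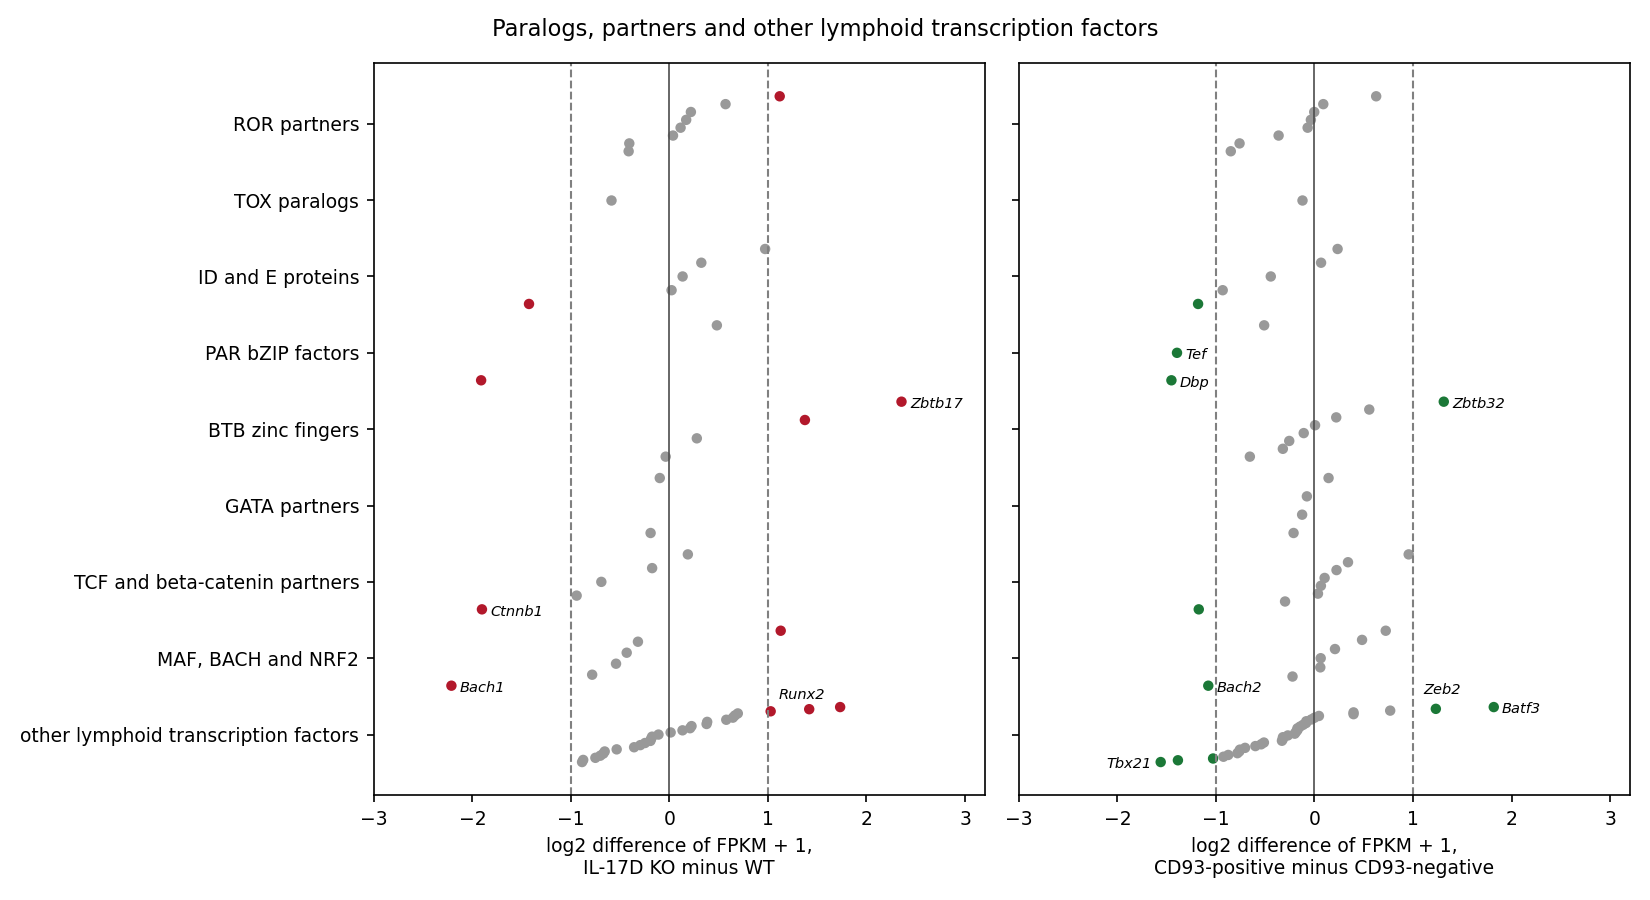
Log2 differences of FPKM + 1 of measured partner and factor genes, 1 point per gene and list, KO minus WT on the left and CD93-positive minus CD93-negative on the right; coloured points are past 2-fold and those with an FPKM of at least 5 are named. Zbtb17 (2.36) and Bach1 (-2.21) lie farthest out on the left, and Batf3 (1.82) and Tbx21 (-1.56) on the right.

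Genes that textbooks link to these factors were followed in both pairs. Of all measured genes 2.49% were past 2-fold higher and 1.94% lower in CD93-positive cells. Between KO and WT 16.6% were higher and 12.7% lower in KO. Some genes are in several lists, among them Il22, Il4, Dbp, Tef and Klrb1c, so the counts are not separate results. Of 6 type 3 genes linked to ROR factors, 0 were past 2-fold between KO and WT (median -0.33), and 4 were higher in CD93-positive than in CD93-negative cells (median 1.65, against 0.04 for all genes). These were Il22 (7934 and 1655), the IL-17 genes Il17f (45.5 and 6.33) and Il17a (8.53 and 3.62), and the chemokine receptor gene Ccr6 (28.8 and 3.47). Of 12 clock genes with ROR elements or D-boxes, 2 were lower in CD93-positive cells, Dbp and Tef, with a median of -0.60. Between KO and WT 2 of 11 were lower in KO, Dbp and the clock repressor Cry1 (0.211 and 4.40), with a median of 0.11.

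Of 5 measured genes linked to MAF, 3 were higher in CD93-positive cells, beside 2.49% of all measured genes. These were Il22, also in the list linked to ROR factors, the kinase gene Blk (24.6 and 3.18) and the chemokine receptor gene Cxcr5 (11.7 and 3.16). The median log2 difference of the 5 genes was 1.62. Of 9 linked to PLZF, 1 was higher and 2 were lower in those cells. Pdcd1, which encodes the inhibitory receptor PD-1, stood at 318 and 60.9, Klrb1c, the NK1.1 gene, at 0.721 and 15.3, and Il18r1, an IL-18 receptor gene, at 66.5 and 179. Of 9 linked to TCF-1, Ifngr2 (15.0 and 4.46) was higher and Lef1 and Id3 were lower. Of 13 linked to GATA3, Il17rb (1.11 and 3.23) and the Notch target Hes1 (0.796 and 2.66) were lower. Between KO and WT, Myc (29.1 and 12.3) was the TCF-1 gene and Klrb1c (29.5 and 10.03) the PLZF gene past 2-fold, both higher in KO, and of 7 MAF genes Il4 and Il21 (1.26 and 0) were higher and Il10 (0 and 1.78) was lower.

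Markers of ILC1 and NK cells, a list that holds Tbx21 and Klrb1c, were lower in CD93-positive cells, as Zbtb16 was. Of 15 measured, 8 were past 2-fold lower in CD93-positive cells and 0 higher, beside 1.94% and 2.49% of all measured genes. The 16 tabulated markers summed to 972 and 1784. The granzyme genes Gzmc (456 and 750), Gzmb (396 and 708) and Gzma (27.0 and 82.2) were the highest, and Eomes, the NK cell T-box gene, was not analysed here. T cell markers summed to 49.6 and 117 over 11 tabulated genes, with 1 at 0 in CD93-positive cells, and of 7 measured 4 were lower and 0 higher; the T cell receptor constant genes were not analysed here in this pair. Ctla4, an inhibitory receptor gene, led them at 27.7 and 86.5, and Cd3g stood at 1.12 and 4.67. ILC3 markers summed to 9218 and 2583, with 5 of 16 past 2-fold higher in CD93-positive cells. Il22 made up the most of each sum, and Il22, Il17f and Il17a are also in the list linked to ROR factors. The part of these cells in the differences of Tox2, Zbtb16 and Id2 was not tested.

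Genes were also ranked by the Euclidean distance of their 2 log2 differences, 1 per pair, from those of Gata3 and Tox2, over 3968 genes that reached an FPKM of 5 in each pair. Nearest to Gata3 were Nasp, Ddx58, Sumf1, Supt20 and Ccdc130, at distances from 0.0198 to 0.0459. For Tox2 the nearest were Idi1, Lif, Tnfsf11, Krt83 and Pxdc1, at distances from 0.241 to 0.348. Tox2 itself did not reach that level between KO and WT, and its coordinate there is set by the pseudocount (-0.81 at 1, -2.98 at 0.1 and -0.21 at 5), so nothing is read from those names. Each point has 2 coordinates only, and closeness is a description of 4 libraries.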

How the data were processed

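RNA of 4 mouse ILC3 libraries, 1 per group, was extracted with Trizol and read on a BGISEQ-500, per the labels and the series' design text. The deposited values are FPKM, computed by the authors. Per the submitters' processing notes, mm10, Bowtie2, Subread with featureCounts, edgeR and DESeq2 were used; settings and versions are not given there. Joint and single-library tables held equal values.

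The 9 members and the 24 lists (249 genes) were chosen with earlier results of these data known. Differences are log2((FPKM + 1) / (FPKM + 1)), which understates low genes, among genes that reached an FPKM of 1 in a library. Reads were recovered as FPKM times GENCODE M21 exon length over a library step; 92.1% (KO), 91.9% (WT), 98.1% (CD93-positive) and 98.2% (CD93-negative) of values came out whole within 0.02 reads. Ratios carry 95% Clopper-Pearson intervals, which cover counting error only, since PCR copies are not told apart; a library at 0 was set to 3 reads. No test between conditions was possible. Named genes were all 9 members, their near paralogs, listed factors past 2-fold at an FPKM of at least 5 (at most 10 per pair), at most 4 linked genes and 3 markers per list, and the 5 genes nearest to Gata3 and to Tox2. A few listed genes are not reported here. Promoter windows come from RefSeq (GRCm38.p6). Scripts ran in Python 3.11.15 with numpy 2.4.6, pandas 2.3.3 and scipy 1.17.1 and were tested on simulated data. Pseudocounts of 0.1 and 5, filters, limits of 1.5-fold and 3-fold, a common sum and a median ratio of 1 were tried; the FPKM ratio without pseudocount or filter was added after seeing the data.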

Additional observations from a re-analysis of the deposited data

How the results depend on the processing

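Gata3 was past 2-fold between KO and WT and Tox2 between CD93-positive and CD93-negative cells, 1 member each. Between KO and WT the count was 0 at a 3-fold limit, and 2 at a 1.5-fold limit (Zbtb16 and Gata3) and on the FPKM ratio without pseudocount or filter (Tox2 and Gata3; chosen after seeing the data). In the CD93 pair it was 2, Tox2 and Zbtb16, with a pseudocount of 0.1, at a common sum and on the FPKM ratio, and 3 at a 1.5-fold limit, with Id2. The other alternatives kept the count of 1. A common sum turned the sign of 1 member in each pair, Tcf7 between KO and WT and Nfil3 in the CD93 pair. Leaving out a library was not possible with 1 per group. No paired analysis was possible because each group has 1 library and the labels give no replicate numbers. The reads behind Tox2 in KO and WT (1 and 69), and Id3 (15 and 61) in the CD93 pair, limit those ratios; the FPKM scaling totals need not be the reads sequenced.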

Other observations

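Among all rows of the table of each pair the members stood at these percentiles of level. The tables list different genes, 15242 for KO and WT and 12546 for the CD93 pair. Rows above 0 numbered 13966 in KO, 14059 in WT, 12489 in CD93-positive and 12544 in CD93-negative cells. Percentiles are therefore not compared between the tables. Id2 was at 98.8 in KO, 98.7 in WT, 99.7 in CD93-positive and 99.4 in CD93-negative cells. Rora was at 97.0, 96.0, 97.7 and 97.4 in the same order, and Gata3 at 96.1, 91.8, 67.6 and 72.0. Maf was at 76.6, 80.6, 92.7 and 88.9. Zbtb16 was at 51.9, 42.1, 44.3 and 62.1, so its level lay near the middle of the tabulated genes in each library. Within libraries Tcf7 was 74.2-fold above its paralog Lef1 in KO, 38.6-fold in WT, 158.5-fold in CD93-positive and 42.0-fold in CD93-negative cells.

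Marker lists not given beside a member in a pair stood as follows. Of all measured genes 16.6% were past 2-fold higher in KO and 12.7% lower. In the CD93 pair 2.49% were higher in CD93-positive cells and 1.94% lower. Of 16 measured ILC1 and NK cell markers 5 were higher in KO and 1 was lower. Their median log2 difference was 0.54, and they summed to 1461 FPKM in KO and 1044 in WT. ILC3 markers summed to 13952.5 in KO and 18304.9 in WT, with 1 of 16 higher and 1 lower. Between KO and WT, 4 of 8 measured B and plasma cell markers were past 2-fold higher in KO and 0 lower, with summed levels of 4745 and 2903 FPKM, mostly Iglc1 (2579 and 1019) and Igkc. Of 10 measured intestinal epithelial markers 7 were higher and 1 was lower (1073 and 299.9 FPKM summed), led by the Paneth cell gene Defa24 (887 and 243). Of 7 macrophage and dendritic cell markers 5 were higher and 2 were lower (67.4 and 17.6), and of 4 endothelial and stromal markers 0 were higher and 3 were lower. All 13 pancreatic exocrine markers were higher in KO, and 8 of them were at 0 in WT. In the CD93 pair 0 of 12 pancreatic markers were past 2-fold (474 in CD93-positive and 728 in CD93-negative cells), and of 7 epithelial markers 1 was lower in CD93-positive cells. Of 4 endothelial and stromal markers 2 were higher there and 0 lower, with a median log2 difference of 0.67, whose sign turned with no filter on low values, and sums of 106 and 75.5 FPKM over 12 tabulated genes. Of 8 macrophage and dendritic cell markers 1 was higher and 0 were lower, with a median of 0.51. One B cell marker was measured, Cd79b (2.27 and 4.98), and of 8 ILC2 markers 0 were higher and 1 was lower. The part of these cells in the levels of the 9 genes was not tested.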
